A study of Mus musculus with 12 samples.

Results

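The 7 genes described here are Nppa, Nppb, Ankrd1, Ankrd23, Xirp1, Xirp2 and Abra, which encode the natriuretic peptides and proteins known to be raised in heart muscle under load. They were chosen by gene symbol, and all 7 were found among the 23337 genes counted in heart muscle cells (cardiomyocytes, CMs) of mice in which Srf, the gene for serum response factor, was inactivated. There were 4 groups of 3 samples. Knockout (KO) mice were Srf-flox/flox and control (CTRL) mice were Srf-flox/+, so CTRL CMs also lost a copy of Srf where Cre acted. All mice received AAV9-cTNT-Cre, an adeno-associated virus in which the cardiac troponin T promoter drives Cre recombinase, and carried a fluorescent reporter that Cre switches on. The P14 CTRL and P14 KO groups were injected at postnatal day 1 and collected at postnatal day 14 (the neonatal model), and the P90 CTRL and P90 KO groups were injected at postnatal day 60 and collected at postnatal day 90 (the adult model). Per the study's methods the virus dose was low, so that recombined CMs lay among unrecombined ones, and the fluorescent CMs were sorted from the apex, the ventricular tip, of enzymatically digested hearts. The study's description of its RNA-seq of sorted CMs counts replicates as hearts, so p-values measure the spread between hearts and their preparations.

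Nppa and Nppb encode the precursors of atrial and B-type natriuretic peptide, hormones that CMs secrete when the heart wall is stretched and that act through cyclic GMP in kidney, vessels and heart. Nppa is strongly expressed in atria and in the fetal ventricle. Ankrd1 and Ankrd23 encode muscle ankyrin repeat proteins, which bind the spring region of titin and are also found in the nucleus. Xirp1 and Xirp2 encode Xin repeat proteins, which bind actin filaments at the intercalated disc, where CMs are joined end to end. Abra, also called STARS, encodes an actin-binding protein of the sarcomere that is known to favour entry of the MRTF coactivators into the nucleus, where they act with SRF. SRF binds the CArG box, a motif found near many muscle and cytoskeleton genes.

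Each sample held 9740389 to 23103460 counts, so that 3 counts correspond to 0.138 to 0.326 CPM (a gene's counts relative to its library's total, scaled by TMM factors over the 12 samples), a floor that covers counting error only. Srf was 64.0, 57.1 and 49.4 CPM in P14 CTRL and 32.1, 27.5 and 9.75 CPM in P14 KO, and 71.2, 59.1 and 81.1 CPM in P90 CTRL and 32.9, 28.9 and 28.1 CPM in P90 KO. Every KO sample was below every CTRL sample of its age, although in the neonatal samples the difference missed the threshold in edgeR (log2 fold change -1.30, adjusted p = 0.0628) and passed it in DESeq2 (adjusted p = 0.00224). Cardiomyocyte markers were abundant in every sample, with a summed level of 8 genes of 70855 to 107763 CPM. The sum was 97054 to 103851 CPM in P14 CTRL and 70855 to 74172 CPM in P14 KO. At P90 it was 97363 to 107763 CPM in CTRL and 91588 to 94202 CPM in KO, so KO was the lower group at both ages, without overlap. The corresponding sums of 8 markers each were 234 to 526 CPM for endothelial cells, 52.1 to 349 CPM for fibroblasts and 6.30 to 25.4 CPM for macrophages and leukocytes. For smooth muscle cells and pericytes the sum of 8 markers, described further below, was 520 to 1733 CPM. The 4 hemoglobin genes listed had no count in any sample. The sum of 6 erythroid markers, those 4 included, was 0.0516 to 2.39 CPM, so the zeros do not show that blood RNA was absent. At least 100 counts over 4 Y-linked genes were found in replicate 1 of P14 CTRL, replicate 3 of P14 KO and replicate 3 of P90 CTRL, against 0 to 2 counts in each other sample, so both sexes were present.

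The members lie at 7 separate places in the mouse genome (mm10), and no exon of another counted gene overlaps theirs. Nppb (chr4:147985789-147987205, plus strand) and Nppa (chr4:148000746-148002067, plus strand) are neighbours on chromosome 4, with 13541 bases between the end of Nppb and the start of Nppa, and each has 3 exons. Ankrd1 (chr19:36111965-36119844, minus strand) and Ankrd23 (chr1:36530534-36535729, minus strand) have 9 exons each. Xirp1 (chr9:120013755-120023598, minus strand) has 3 exons and Xirp2 (chr2:67446002-67526606, plus strand) has 11. Abra (chr15:41865293-41869720, minus strand) has 2 exons. The summed exon lengths were 829 bp for Nppa, 780 bp for Nppb, 1765 bp for Ankrd1, 1954 bp for Ankrd23, 5839 bp for Xirp1, 11971 bp for Xirp2 and 1762 bp for Abra.

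Promoter windows of 300 bases, from 250 bases before to 50 bases after the annotated start, were matched in RefSeq (build GRCm38.p6) for 5 of the 7 members. Those of the neighbours Nppa and Nppb, the pair of members with the largest difference in centred levels (given below), are shown 5′ to 3′. Those of Ankrd23 and Xirp2, the members with a called difference between the stages, are shown in the same way. Capitals mark a match with at most 1 mismatch to the CArG box, the motif that SRF is known to bind.
Nppa: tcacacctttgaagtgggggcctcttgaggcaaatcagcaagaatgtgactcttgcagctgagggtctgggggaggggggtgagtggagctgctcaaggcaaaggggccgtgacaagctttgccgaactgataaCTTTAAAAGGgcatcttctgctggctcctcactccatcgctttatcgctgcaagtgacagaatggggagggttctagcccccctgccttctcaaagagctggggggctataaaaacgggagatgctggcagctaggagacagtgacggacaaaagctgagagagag
Nppb: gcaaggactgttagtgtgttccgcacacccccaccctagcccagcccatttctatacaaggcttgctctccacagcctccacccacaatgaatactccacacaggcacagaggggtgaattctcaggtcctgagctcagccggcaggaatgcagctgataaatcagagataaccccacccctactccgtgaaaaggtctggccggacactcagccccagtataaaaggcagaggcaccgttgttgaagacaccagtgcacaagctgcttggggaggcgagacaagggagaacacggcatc
Ankrd23: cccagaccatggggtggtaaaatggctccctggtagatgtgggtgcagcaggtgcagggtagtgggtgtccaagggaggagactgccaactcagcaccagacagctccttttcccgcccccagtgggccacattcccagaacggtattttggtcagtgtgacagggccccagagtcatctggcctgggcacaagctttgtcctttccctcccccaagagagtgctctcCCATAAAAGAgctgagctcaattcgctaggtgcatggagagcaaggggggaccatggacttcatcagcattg
Xirp2: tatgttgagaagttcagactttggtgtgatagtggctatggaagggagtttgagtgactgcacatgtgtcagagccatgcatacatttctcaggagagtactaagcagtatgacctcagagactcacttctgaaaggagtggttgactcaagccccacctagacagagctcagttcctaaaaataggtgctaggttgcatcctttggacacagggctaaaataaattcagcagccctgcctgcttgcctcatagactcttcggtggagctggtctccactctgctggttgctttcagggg
The windows are chr4:148000472-148000771 (plus strand) for Nppa, chr4:147985650-147985949 (plus strand) for Nppb, chr1:36535690-36535989 (minus strand) for Ankrd23 and chr2:67445752-67446051 (plus strand) for Xirp2. The RefSeq start of Nppb lies 111 bp inside the gene as counted here, and those of Nppa and Ankrd23 differ from the counted gene's end by 24 bp and 10 bp.

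On both strands of each window, the CArG box, the same with 1 mismatch, the TEAD site CATTCC and the GATA site AGATAA were searched. No member window held a CArG box without mismatch, which 1.63% of the 32851 promoters in the table did. A CArG box with 1 mismatch was found in the Nppa window from position -116 to -107 and in the Ankrd23 window from -22 to -13, counted from the start site, and 21.1% of all promoters held such a match or a better one. A TEAD site was found in the windows of Nppb (-105 to -100), Ankrd1 (-210 to -205 and -123 to -118) and Ankrd23 (-120 to -115), against 14.7% of all promoters. A GATA site was found in those of Nppb (-84 to -79) and Ankrd1 (-47 to -42), against 11.2% of all promoters. The Xirp2 window held none of these letters, and no 2 matches shared a base. These matches describe sequence only and say nothing about sites outside the windows.

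In neonatal CMs, 3 of the 7 genes rose in KO: Ankrd23, Xirp2 and Abra. Each rose by close to the same amount, 2.19-fold, 2.11-fold and 1.97-fold as fitted by edgeR. Nppa and Ankrd1 had higher means in KO as well, but their samples overlapped and the differences did not pass the test. In adult CMs only Abra passed, at 2.26-fold, and Nppb and Xirp2 had lower means in KO. The members together took between 0.398% and 0.598% of all counts in P14 KO, against 0.175% to 0.345% in P14 CTRL. At P90 their share was 0.287% to 0.334% in KO and 0.249% to 0.321% in CTRL.

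Called here means an adjusted p-value under 0.05 in edgeR's quasi-likelihood test, with Benjamini-Hochberg adjustment over all genes tested. Of the 12546 genes tested in neonatal CMs, 8.59% were called, 3.99% as higher and 4.6% as lower in KO. All 7 members had a positive log2 fold change, the smallest being 0.03 for Nppb, and so did 6292 of the 12546 genes tested. The members' median was 0.98 against 0.00108 over all genes tested. The KO and CTRL samples did not overlap for 4 members, Ankrd23, Xirp1, Xirp2 and Abra, and for 32.7% of all genes tested. Of the 11808 genes tested in adult CMs, 0.39% were called, 0.237% as higher and 0.152% as lower. The members' median log2 fold change was 0.20 against 0.00569 over all genes, and the samples did not overlap for 1 member, Abra, against 21.6% of all genes.

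**Figure D1:**
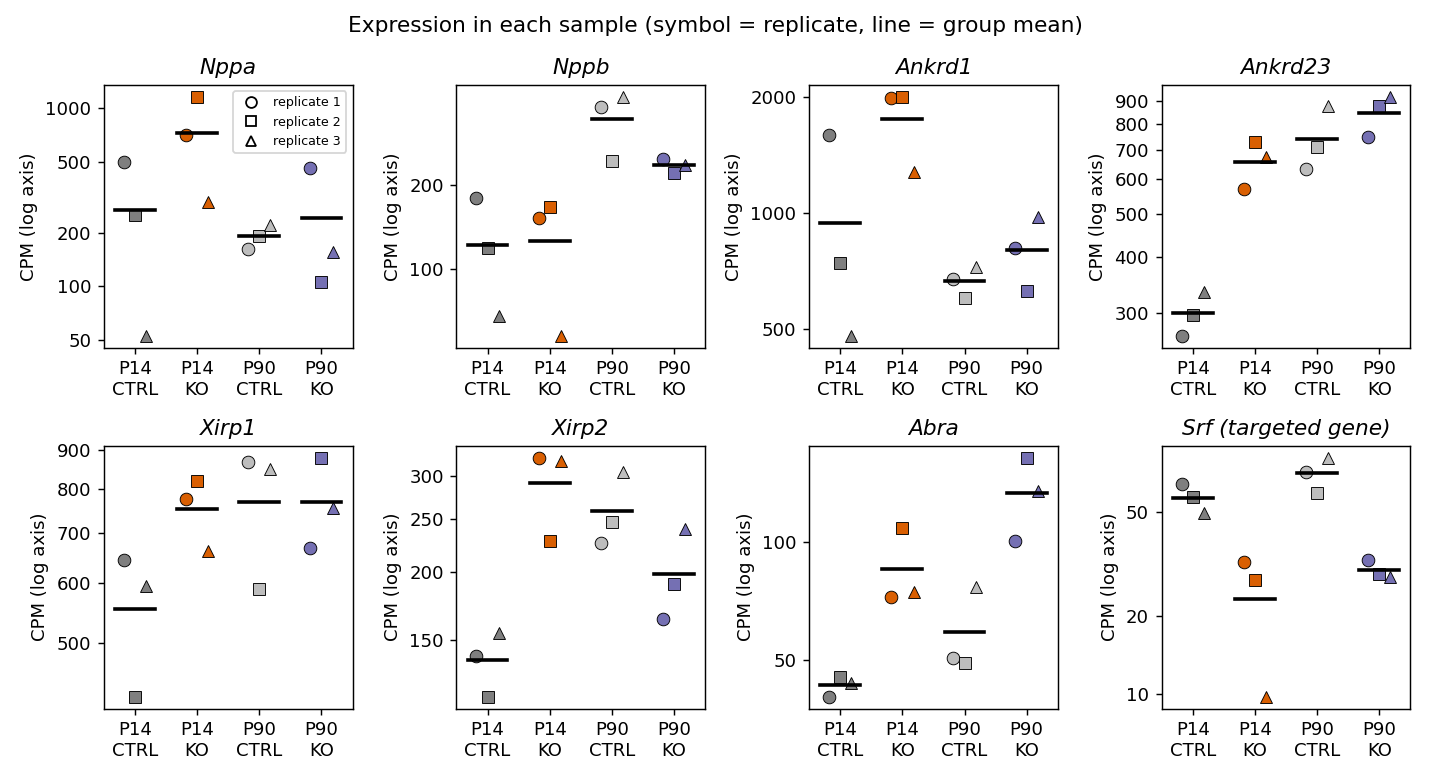
CPM of the 7 members and of Srf (vertical log axes, each panel with its own range) in the 12 samples, by group; the symbol gives the replicate number and the line the group mean. Ankrd23, Xirp2 and Abra in P14 KO lie above every P14 CTRL sample, Abra does so at P90 as well, and Nppa is spread over 52.5 to 497 CPM within P14 CTRL.

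**Figure D2:**
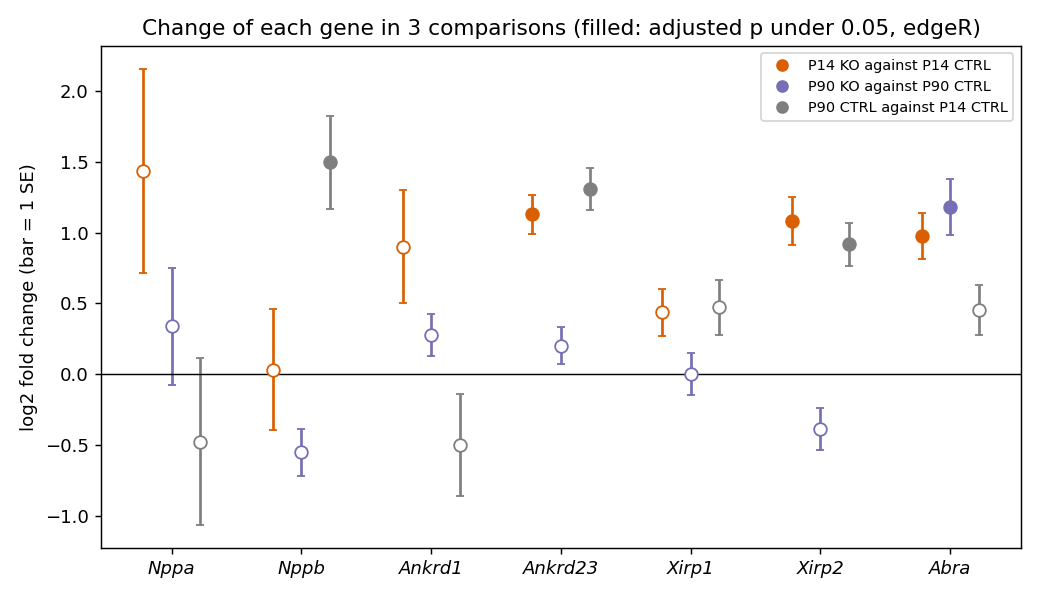
Log2 fold change with 1 SE of each member for P14 KO against P14 CTRL, P90 KO against P90 CTRL and P90 CTRL against P14 CTRL; filled symbols passed an adjusted p of 0.05 in edgeR. Xirp2 is at 1.08 in neonatal and -0.38 in adult CMs, and Abra is at 0.98 and 1.18.

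Among the hormones, Nppa, the precursor of atrial natriuretic peptide, was 497, 250 and 52.5 CPM in P14 CTRL and 712, 1160 and 296 CPM in P14 KO. It was the most variable member, with a 22.1-fold range over the 12 samples, and replicate 1 of CTRL was above replicate 3 of KO. The means were 723 ± 432 CPM in KO and 267 ± 223 CPM in CTRL (SD, n = 3 each). The change fitted by edgeR was 2.70-fold, a log2 fold change of 1.44 ± 0.72 (SE) that did not pass the test (adjusted p = 0.257). Single samples moved this difference, to 2.24 without replicate 1 of P14 CTRL, 0.95 without replicate 3 of P14 CTRL and 0.93 without replicate 2 of P14 KO. In adult CMs Nppa was 162, 192 and 222 CPM in CTRL and 464, 105 and 156 CPM in KO. Here 1 KO sample was above all CTRL samples and the other two were below all of them, and the log2 fold change of 0.34 ± 0.42 (SE, adjusted p = 0.727) became -0.56 without replicate 1 of P90 KO. That sample also had the highest summed level of 12 atrial cardiomyocyte markers, 324 CPM, against 136 and 148 CPM in the other P90 KO samples and 128 to 210 CPM in P90 CTRL. In the neonatal samples the same sum was 88.8, 65.7 and 82.4 CPM in CTRL and 160, 110 and 74.8 CPM in KO. The CTRL sample with 52.5 CPM of Nppa, replicate 3, was the one at 82.4 CPM. Tbx5, Kcnj3 and Stard10 were among the most abundant genes of this sum, with means of 34.5, 19.3 and 18.6 CPM over the 12 samples. Their neonatal log2 fold changes were 0.02, -0.04 and 0.31, none of them called. Of the 11 markers of this sum that were tested, 8 had a positive neonatal log2 fold change. The largest were Sln (4.08), Myl7 (3.53), Mybphl (2.72), Dkk3 (2.08) and Myl4 (1.67), of which edgeR called Myl4 alone. The cells came from the heart apex, and the part of atrial cells in the Nppa levels was not tested. In sorted pools a larger share of such cells and more RNA per cell cannot be told apart.

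**Figure D3:**
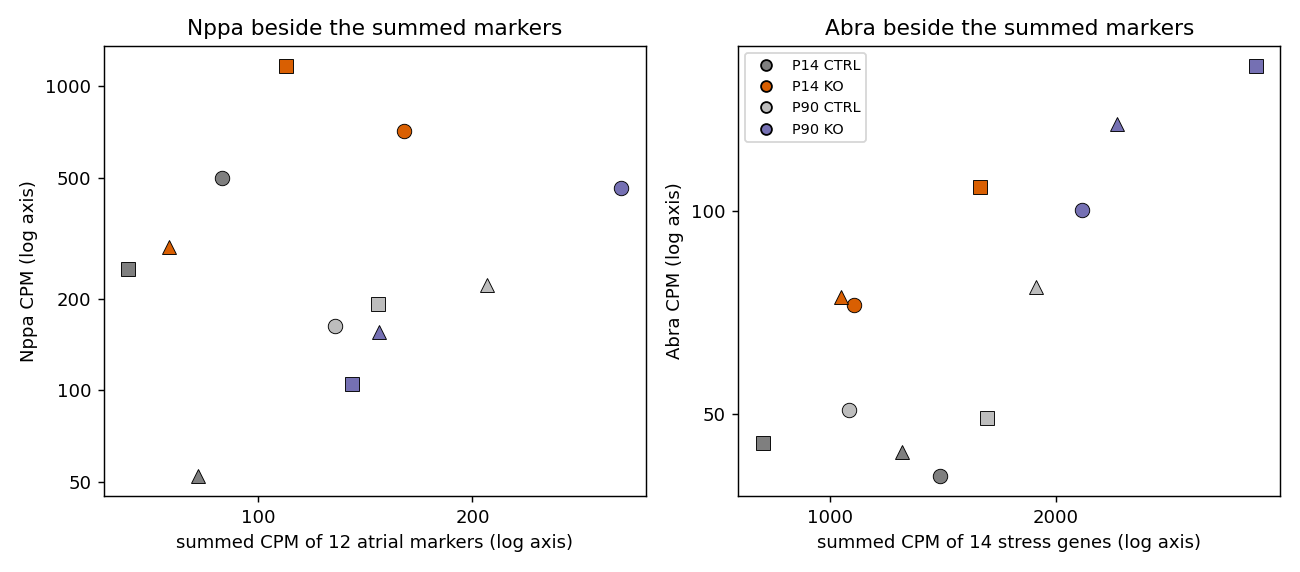
Left, Nppa CPM against the summed CPM of 12 atrial cardiomyocyte markers; right, Abra CPM against the summed CPM of 14 immediate-early and heat-shock (stress) genes; 1 symbol per sample, all axes log, circles, squares and triangles for replicates 1, 2 and 3. Replicate 1 of P90 KO is farthest right in the left panel at 324 CPM, and the 3 P90 KO samples are farthest right in the right panel at 2167 to 3694 CPM.

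Nppb, the precursor of B-type natriuretic peptide, was 180, 120 and 68.4 CPM in P14 CTRL and 153, 168 and 57.9 CPM in P14 KO. The neonatal groups overlapped over most of their ranges, with means of 123 ± 56.0 and 126 ± 59.5 CPM (SD, n = 3) and a log2 fold change of 0.03 ± 0.42 (SE, adjusted p = 0.974). In adult CMs it was 380, 244 and 414 CPM in CTRL and 249, 221 and 237 CPM in KO. The lowest CTRL sample lay within the KO range, and the log2 fold change of -0.55 ± 0.16 (SE) missed the threshold in edgeR (adjusted p = 0.149). It passed in DESeq2 (adjusted p = 0.0384) and in edgeR without replicate 2 of P90 CTRL (log2 fold change -0.75, adjusted p = 0.0279), which was the smallest library. Without replicate 3 of P90 CTRL, the highest sample, it was weaker (log2 fold change -0.40, adjusted p = 0.401 in edgeR). In the edgeR fit of all 12 samples it did not pass either (-0.56, adjusted p = 0.584).

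The neighbours thus did not keep a fixed proportion. The ratio of Nppa to Nppb counts was 2.76, 2.09 and 0.767 in P14 CTRL and 4.67, 6.92 and 5.11 in P14 KO. Each P14 KO sample had a higher ratio than each P14 CTRL sample, which compares both genes within a library and does not depend on its scaling. At P90 the ratio was 0.427, 0.786 and 0.536 in CTRL and 1.86, 0.475 and 0.659 in KO, and there the groups overlapped. The ratio was below 1 in 5 of the 6 adult samples and above 1 in 5 of the 6 neonatal samples; it was chosen after the values were seen and was not tested.

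**Figure D4:**
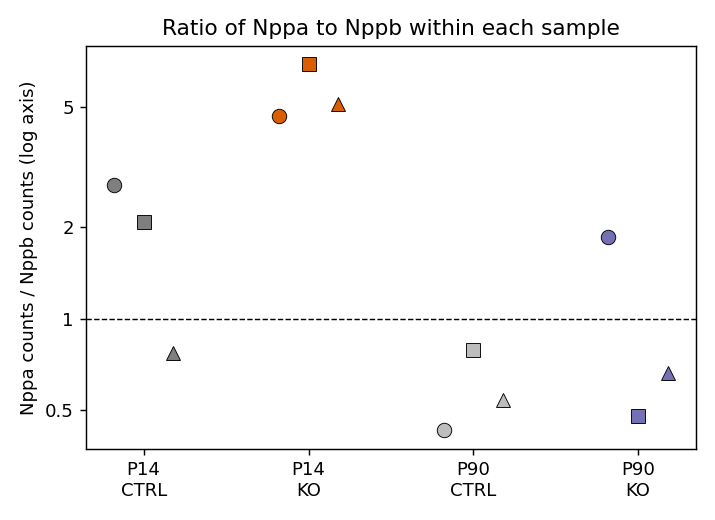
Ratio of Nppa to Nppb counts within each of the 12 samples (log axis), by group; the dashed line marks equal counts and the symbols the replicates. The P14 KO samples lie at 4.67 to 6.92, above the P14 CTRL samples at 0.767 to 2.76.

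Ankrd1, the cardiac ankyrin repeat protein, had the highest mean CPM of the members over the 12 samples, though not in either P90 group. It was at 1598, 739 and 479 CPM in P14 CTRL and 1987, 2002 and 1273 CPM in P14 KO. Replicate 1 of CTRL exceeded replicate 3 of KO, and the log2 fold change of 0.90 ± 0.40 (SE) did not pass the test (adjusted p = 0.199). With the replicate number as a block in edgeR it was called (log2 fold change 1.05, adjusted p = 0.0332). It was also called without replicate 1 of P14 CTRL (log2 fold change 1.52, adjusted p = 0.0286). That sample was also the highest CTRL sample for Nppa and Nppb and is the one with at least 100 Y-linked counts. With it and replicate 3 of P14 KO, which also had at least 100 such counts, left out, Ankrd1 was called too (log2 fold change 1.71, adjusted p = 0.045). In adult CMs Ankrd1 was 671, 601 and 723 CPM in CTRL and 810, 626 and 973 CPM in KO, with a log2 fold change of 0.28 ± 0.15 (SE, adjusted p = 0.376).

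Ankrd23, the diabetes-related ankyrin repeat protein, was 266, 297 and 335 CPM in P14 CTRL and 569, 728 and 672 CPM in P14 KO. The groups were well apart, with means of 299 ± 34.2 and 656 ± 80.7 CPM (SD, n = 3), and Ankrd23 rose with a log2 fold change of 1.13 ± 0.14 (SE, adjusted p = 0.00699). In adult CMs it was 631, 711 and 875 CPM in CTRL and 748, 877 and 920 CPM in KO, groups that overlapped, with a log2 fold change of 0.20 ± 0.13 (SE, adjusted p = 0.469). The neonatal effect exceeded the adult effect by 0.93 ± 0.20 (log2, SE, adjusted p = 0.0399) in the test of the difference itself, which called 1.78% of the 12841 genes tested. Leaving out 1 sample ended that call in 8 of 12 cases (each P14 KO sample, replicate 2 of P14 CTRL, replicates 2 and 3 of P90 CTRL, and replicates 1 and 2 of P90 KO), with differences between 0.81 and 1.02.

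Xirp1, the Xin protein of the intercalated disc, varied least over the 12 samples, with a 2.07-fold range. It was 643, 425 and 594 CPM in P14 CTRL and 775, 820 and 662 CPM in P14 KO. The groups did not overlap, though the highest CTRL and the lowest KO sample were close, and the log2 fold change of 0.44 ± 0.17 (SE) did not pass the test (adjusted p = 0.145). In adult CMs it was 867, 590 and 848 CPM in CTRL and 668, 879 and 754 CPM in KO, with means of 768 and 767 CPM. The adult log2 fold change was 0.00203 ± 0.15 (SE, adjusted p = 0.996).

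Xirp2, its larger relative, was 140, 118 and 154 CPM in P14 CTRL and 325, 228 and 321 CPM in P14 KO. The lowest KO sample was above the highest CTRL sample, and Xirp2 rose with a log2 fold change of 1.08 ± 0.17 (SE, adjusted p = 0.0132). The call was lost without replicate 1 or replicate 3 of P14 KO (adjusted p = 0.0542 and 0.056), with log2 fold changes of 1.00 and 1.02. In adult CMs the KO mean was the lower one, at 226, 247 and 306 CPM in CTRL and 164, 190 and 240 CPM in KO, although the groups overlapped and the log2 fold change of -0.38 ± 0.15 (SE) did not pass the test (adjusted p = 0.246). The neonatal effect exceeded the adult effect by 1.47 ± 0.25 (log2, SE, adjusted p = 0.0210), which was the largest such difference among the members. This call was lost without replicate 3 of P14 KO, replicate 3 of P90 CTRL, or replicate 1 or 2 of P90 KO, with differences of 1.35 to 1.45.

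Abra, the actin-binding activator of MRTF and SRF signalling, was 40.4, 45.3 and 43.9 CPM in P14 CTRL and 72.6, 108 and 74.5 CPM in P14 KO. The CTRL samples were close together, at 43.2 ± 2.49 CPM (SD, n = 3), and all KO samples were above them. Abra rose with a log2 fold change of 0.98 ± 0.16 (SE, adjusted p = 0.0153). In adult CMs it was 50.7, 49.2 and 77.0 CPM in CTRL and 101, 164 and 135 CPM in KO. The groups again did not overlap, and Abra rose with a log2 fold change of 1.18 ± 0.20 (SE, adjusted p = 0.0374). The effects at the 2 stages differed by -0.19 ± 0.29 (neonatal minus adult, log2, SE, adjusted p = 0.773), which does not show that they were equal. The adult call was lost without replicate 1 or 2 of P90 CTRL or replicate 2 or 3 of P90 KO (adjusted p = 0.0921, 0.112, 0.147 and 0.0618), with log2 fold changes of 1.00 to 1.17.

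Stress genes moved with Abra at P90. The summed level of 14 immediate-early and heat-shock genes was 1059, 1620 and 1883 CPM in P90 CTRL and 2167, 3694 and 2415 CPM in P90 KO, so that the KO sample with the most Abra also had the highest sum. All 14 genes had a positive adult log2 fold change, with a median of 0.85, and 1 was called by edgeR, Hspa1b, an inducible heat-shock protein, at 1.90 ± 0.32 (SE, adjusted p = 0.0374), against 4 by DESeq2. In the neonatal samples the sum overlapped between the groups, at 1402, 813 and 1246 CPM in CTRL and 1077, 1582 and 1035 CPM in KO, while Abra did not. Replicate 2 of P14 KO had both the most Abra and the highest sum there. Replicate 2 of P14 CTRL had the most Abra of its group but the lowest sum. Of the 14 genes, 1 rose in neonatal KO, the transcription factor gene Atf3 (log2 fold change 1.17 ± 0.26, SE, adjusted p = 0.0302). The part of dissociation or handling stress in the adult Abra levels was not tested.

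With the 2 neonatal samples that had at least 100 Y-linked counts left out (2 against 2), the neonatal calls of Ankrd23, Xirp2 and Abra were lost. Their adjusted p in edgeR were 0.0715, 0.109 and 0.0966, with log2 fold changes of 1.04, 1.02 and 1.02. Ankrd1 was the 1 member called in that fit (log2 fold change 1.71, adjusted p = 0.045). Markers of other cardiomyocyte types also differed between the neonatal groups. The sum of 10 conduction system markers was 155, 85.4 and 114 CPM in P14 CTRL and 175, 215 and 221 CPM in P14 KO, with Shox2 at 0 in all 6 samples, and 2 of the 8 tested rose, Cacna1g and Hcn4, while Smoc2 fell. The sum of 6 ventricular markers was 14156 to 19443 CPM in P14 CTRL and 7045 to 9668 CPM in P14 KO, and 3 of them fell (Kcnip2, Myl3 and Lrrc10). Hey2 (-0.78), Myl2 (-0.27) and Irx4 (0.10, log2) were not called. The sum of 8 markers of smooth muscle cells and pericytes was 1291 to 1733 CPM in P14 CTRL and 520 to 809 CPM in P14 KO. In it 1 gene fell, the actin gene Acta2. Acta2 and Abcc9 were by far its most abundant genes, with means of 434 and 394 CPM over the 12 samples. Among those not called were Abcc9 (-0.44), Myh11 (0.22) and Tagln (0.18). Of 11 atrial markers tested, 1 rose, Myl4 (log2 fold change 1.67), and 8 had a positive log2 fold change. Sln (4.08), Myl7 (3.53), Mybphl (2.72) and Dkk3 (2.08) had larger ones that edgeR did not call (adjusted p = 0.124, 0.143, 0.215 and 0.0860). Of these, Dkk3 passed in DESeq2 (adjusted p = 0.00882). The paper counts Myl4 and Myl7 among the immature myofibrillar isoforms. The part of all these markers in the neonatal changes of the members was not tested.

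In CTRL CMs between P14 and P90, 3 of the 7 members rose: Nppb, Ankrd23 and Xirp2. Of the 12294 genes tested, 29.3% were called, 14.5% as higher and 14.9% as lower at P90. Nppb rose 2.82-fold (log2 fold change 1.495 ± 0.33, SE, adjusted p = 0.00949), Ankrd23 2.47-fold (1.31 ± 0.15, adjusted p = 0.000511) and Xirp2 1.89-fold (0.92 ± 0.15, adjusted p = 0.00299), and the P14 and P90 CTRL samples did not overlap for any of these. They did not overlap for 44.9% of all genes tested. Ankrd23 and Xirp2 were therefore higher both in KO at P14 and in CTRL at P90 than in CTRL at P14. Both comparisons use the same P14 CTRL samples, so they are not independent. Abra did not overlap between the CTRL groups either, but its log2 fold change of 0.45 ± 0.18 (SE) did not pass the test (adjusted p = 0.0834). Nppa and Ankrd1 had lower means at P90 (log2 fold changes -0.47 and -0.50, adjusted p = 0.575 and 0.327), and the sign of both turned without replicate 1 of P14 CTRL, to 0.36 and 0.15. Markers of other cell types moved in the same comparison: 7 of 11 atrial markers rose and 2 fell (summed level 65.7 to 88.8 CPM in P14 CTRL and 128 to 210 CPM in P90 CTRL), and 5 of 7 fibroblast and 5 of 8 endothelial markers fell. Their part in the members' changes was not tested. The stages were injected at different ages and deposited as separate tables, so age and handling cannot be told apart.

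Levels of different genes were compared per kilobase of exon. In P14 CTRL the order of the mean levels was Ankrd1 at 532, Nppa at 322, Nppb at 157, Ankrd23 at 153, Xirp1 at 94.9, Abra at 24.5 and Xirp2 at 11.5 CPM per kb. Neighbours in this order overlapped from Ankrd1 down to Ankrd23, and the levels from Ankrd23 down to Xirp2 were separate. In P14 KO the order was Ankrd1 at 994, Nppa at 872, Ankrd23 at 336, Nppb at 162, Xirp1 at 129, Abra at 48.3 and Xirp2 at 24.3 CPM per kb. Ankrd23 was thus above Nppb without overlap, Nppb and Xirp1 overlapped, and Abra and Xirp2 were again lowest.

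In P90 CTRL, Nppb led at 443, followed by Ankrd23 at 378, Ankrd1 at 377, Nppa at 232, Xirp1 at 132, Abra at 33.5 and Xirp2 at 21.7 CPM per kb. Nppb, Ankrd23 and Ankrd1 overlapped, and each lower level was separate from the next. In P90 KO the order was Ankrd1 at 455, Ankrd23 at 434, Nppb at 302, Nppa at 291, Xirp1 at 131, Abra at 75.5 and Xirp2 at 16.6 CPM per kb. Xirp1 was above Xirp2 per kb in each sample, by 4.23-fold at the least and 9.47-fold at the most.

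The related genes were described from lists of partners and pathway members. Beside the counts that follow, 3.99% of all genes tested were called as higher and 4.6% as lower in neonatal KO. In adult KO the shares were 0.237% and 0.152%. Of 12 genes tested for natriuretic peptide processing, reception and cyclic GMP signalling, 3 rose in neonatal KO, with a list median of 0.13 (log2). These were Prkg1, a protein kinase that cyclic GMP activates (1.15 ± 0.19, SE, adjusted p = 0.0150), Furin, a protease that cleaves hormone precursors including that of Nppb (0.66 ± 0.14, adjusted p = 0.0280), and Npr2, the receptor of C-type natriuretic peptide (0.43 ± 0.11, adjusted p = 0.0494). Prkg1 was 23.7, 23.7 and 14.9 CPM in P14 CTRL and 47.7, 41.0 and 49.9 CPM in P14 KO, levels that do not overlap. Corin, the protease that activates atrial natriuretic peptide and the most abundant gene of the list, was at 362 ± 43.6 and 388 ± 112 CPM (SD, n = 3), with a log2 fold change of 0.10 (adjusted p = 0.827). In adult KO, 0 of 11 were called by edgeR and 0 by DESeq2. Among them Npr3, the clearance receptor, alone had an unadjusted p under 0.05 in edgeR (log2 fold change -0.59, adjusted p = 0.174).

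Of 14 partners of the titin spring and of ankyrin repeat proteins, 2 rose in neonatal KO, with a list median of 0.13. They were Fhl1, a LIM protein that binds titin (0.88 ± 0.16, SE, adjusted p = 0.0189), and Csrp3, the muscle LIM protein of the Z-disc (0.57 ± 0.11, adjusted p = 0.0222). Fhl1 was 105, 139 and 93.0 CPM in CTRL and 193, 232 and 199 CPM in KO. Titin itself, Ttn, had a log2 fold change of -0.41 (adjusted p = 0.298) in neonatal KO and of -0.88 in adult KO, which missed the threshold in edgeR (adjusted p = 0.0865) and passed it in DESeq2 (adjusted p = 0.000647). In adult KO 1 rose, the Z-disc protein Myoz2 (0.61 ± 0.10, adjusted p = 0.0314), and the list median was 0.12.

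Of 15 partners of the Xin repeat proteins, 5 rose in neonatal KO and the list median was 0.27. They were the pacemaker channel gene Hcn4, which is also on the list of conduction system markers (1.09 ± 0.21, SE, adjusted p = 0.0209), Flnc, a filamin that crosslinks actin at the Z-disc (0.80 ± 0.16, adjusted p = 0.0214), Nrap, an actin-anchoring protein of the intercalated disc (0.75 ± 0.13, adjusted p = 0.0153), Ctnna3, an alpha catenin (0.65 ± 0.14, adjusted p = 0.0302), and Cdh2, the cadherin that joins CMs (0.52 ± 0.12, adjusted p = 0.0375). Flnc was 406, 301 and 429 CPM in P14 CTRL and 736, 612 and 639 CPM in P14 KO, without overlap. At P90 it was 698, 528 and 755 CPM in CTRL and 370, 499 and 603 CPM in KO, and its difference between stages, 1.24 ± 0.26 (log2, SE), was called (adjusted p = 0.0399), as for Xirp2. In adult KO, 0 of 15 were called by edgeR and by DESeq2, the list median was -0.04, and 4 had an unadjusted p under 0.05 in edgeR, Hcn4 (-0.45), Flnc (-0.43), the tight junction protein gene Tjp1 (-0.28) and Cdh2 (0.24).

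Of 15 genes of Abra partners and the MRTF to SRF axis, Srf included, 3 rose in neonatal KO and the list median was 0.22. They were Myocd, the myocardin coactivator of SRF (0.86 ± 0.14, SE, adjusted p = 0.0153), Rhob, a small GTPase (0.79 ± 0.14, adjusted p = 0.0168), and Mkl2, which encodes the coactivator MRTF-B (0.52 ± 0.13, adjusted p = 0.0443). Myocd was 207, 190 and 160 CPM in P14 CTRL and 375, 289 and 350 CPM in P14 KO. In adult KO Srf fell (-1.23 ± 0.13, adjusted p = 0.00347) and Lmod2, a nucleator of actin filaments, rose (0.51 ± 0.09, adjusted p = 0.0485), and the list median was 0.13.

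Of 14 other markers of hypertrophy, 3 rose and 3 fell in neonatal KO, and the list median was 0.12. Tnni1, the fetal troponin I (2.72 ± 0.40, SE, adjusted p = 0.0116), Gdf15, a secreted stress factor (1.77 ± 0.36, adjusted p = 0.0242), and Rcan1, a calcineurin inhibitor that calcineurin signalling induces (1.32 ± 0.14, adjusted p = 0.00357), rose. The cardiac actin Actc1 (-1.39 ± 0.24, adjusted p = 0.0168), the adult myosin Myh6 (-0.65 ± 0.16, adjusted p = 0.0466) and the calcium pump Atp2a2 (-0.62 ± 0.14, adjusted p = 0.0361) fell. Rcan1 was 148, 169 and 190 CPM in P14 CTRL and 382, 417 and 472 CPM in P14 KO, and 173, 212 and 256 CPM in P90 CTRL and 227, 281 and 308 CPM in P90 KO. Its neonatal effect exceeded the adult one by 0.98 ± 0.22 (log2, SE, adjusted p = 0.0454). In adult KO 2 of 13 fell, Actc1 (-0.79 ± 0.14, adjusted p = 0.0494) and the sodium-calcium exchanger Slc8a1 (-0.75 ± 0.09, adjusted p = 0.00755), and the list median was -0.12.

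**Figure D5:**
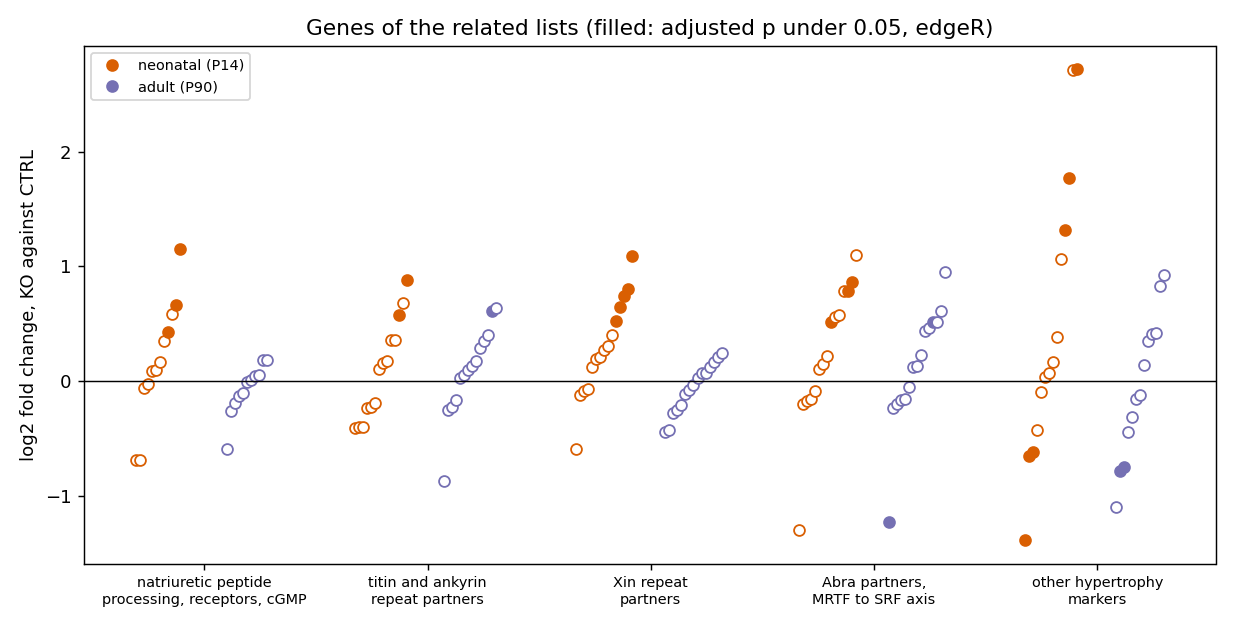
Log2 fold change of each tested gene of the 5 related lists in neonatal and adult KO against CTRL, sorted within a list; filled symbols passed an adjusted p of 0.05 in edgeR. In neonatal KO 5 of 15 Xin repeat partners are filled, all 5 above 0, and 3.99% of all genes tested were called as higher. In adult KO 0 of the 15 are filled, and 0.39% of all genes tested were called.

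Genes with the most similar patterns were found as those with the smallest root mean square difference of log2(CPM + 1), after each gene was centred, over the 12 samples and among 9466 genes with a mean of at least 5 CPM. For Xirp2 the nearest was Flnc at 0.18, followed by Ttpal and Dtx3l at 0.24 each. For Ankrd23 they were Prnp (0.19), Syt11 (0.21) and Ccdc21 (0.22), and for Xirp1 Sik2 (0.13), Pprc1 (0.15) and Nol9 (0.15). For Abra they were Jund (0.27), a member of the AP-1 family, Hsp90aa1 (0.31), a heat-shock chaperone, and Ocel1 (0.36). Nppa was nearest to Ankrd1 (0.68), Myh7 (0.78) and Arrdc2 (0.79), Nppb to Fkbp5 (0.33), Peli2 (0.34) and Pkdcc (0.35), and Ankrd1 to Rftn1 (0.34), Lnx2 (0.35) and 2900026A02Rik (0.35).

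Among the members themselves the closest pair was Xirp1 and Xirp2 at 0.37, followed by Ankrd23 and Abra at 0.41. The most distant pair was Nppa and Nppb at 1.38, and the ankyrin repeat pair Ankrd1 and Ankrd23 was at 0.92. Such a difference also grows with how much each gene varied. The root mean square of the centred levels was 0.29 for Xirp1, 0.46 for Xirp2, 1.17 for Nppa and 0.83 for Nppb. Xirp1 was thus nearer to a constant level (0.29) than to Xirp2 (0.37), and a small difference alone does not show a shared pattern. All these values are descriptions over 12 samples that share libraries, groups and depth.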

How the data were processed

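RNA-seq of sorted mouse CMs was analysed in 12 samples, in 4 groups of 3 given by the sample titles. The labels name SMART-Seq v4 for cDNA amplification and Nextera XT for the libraries. The submitters' processing notes name CASAVA 1.8, STAR 2.5.3a, Subread 1.5.2, featureCounts and mm10. The authors deposited raw counts per gene, not normalized, in 2 tables, 1 per stage. The strand setting is not given in the sources used here, so reads antisense to a gene cannot be told apart.

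Counts were tested with edgeR 4.0.16 (R 4.3.3): filterByExpr, TMM factors, quasi-likelihood test, Benjamini-Hochberg adjustment, threshold 0.05. The KO and CTRL samples of a stage were fitted alone (6 samples), the difference between stages on all 12, and CTRL P90 against CTRL P14 on the 6 CTRL samples. The study used DESeq2, which was run beside it (1.42.0). The tests were first checked on simulated counts. The members, lists and rule for named genes (the called genes of each list, the most abundant others, and the 3 nearest patterns per member) were chosen with earlier results of these data known. Alternatives were another scaling, no filter, the replicate number as a block, 1 fit of all samples, and samples left out. Same-numbered samples were not taken as pairs. Figures were drawn with matplotlib.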

Additional observations from a re-analysis of the deposited data

Results flagged for a closer look

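Ankrd23 and Xirp2 were singled out because their KO effects differed between the stages in the test of the difference itself. For Ankrd23 the neonatal effect was 0.9343 above the adult effect (log2), and all 3 P14 KO samples, but not all P90 KO samples, were above the CTRL samples of their age. For Xirp2 the difference was 1.471 (log2), with a positive neonatal effect that passed the test and a negative adult effect that did not. Neither call held in every fit with 1 sample left out, as given with each gene above.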

How the results depend on the processing

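With total counts in place of scaling factors, an alternative added after the data were seen, the median log2 fold change of all genes moved to 0.22 in the neonatal comparison, and genes called there numbered 1724 (1405 higher and 319 lower, against 501 and 577). The split also moved for the difference between stages (199 higher and 60 lower, against 105 and 123) and for CTRL P90 against P14 (1314 and 2368, against 1779 and 1828), while the members called in the 4 comparisons remained 3, 1, 2 and 3 in number. In neonatal KO, members called were 5 with the replicate block and 1, Ankrd1, without the samples with at least 100 Y-linked counts. All genes called there were 1787 in DESeq2, 2088 in a fit of all 12 samples and 88 without the Y-linked samples. In adult KO, members called were 2 in DESeq2, 3 without the filter, 3 with the replicate block and 0 in the fit of all 12 samples, and all genes called were 312, 701, 655 and 3. For the difference between stages, members called were 0 without the Y-linked samples, and all genes called were 894 in DESeq2, 474 without the filter, 687 with the replicate block and 15 without the Y-linked samples. For CTRL P90 against P14, 5 members were called without the filter, and 925 genes without the Y-linked samples. Leaving out 1 sample in turn gave 2 to 4 members and 111 to 1004 genes called in neonatal KO, 0 to 1 and 6 to 51 in adult KO, 0 to 2 and 4 to 377 for the difference between stages, and 2067 to 4768 genes for CTRL P90 against P14. Signs turned for differences near 0 or resting on 1 sample. Nppb in neonatal KO was -0.0007227 with the replicate block and -0.255 to 0.4093 with 1 sample left out, and Xirp1 in adult KO was -0.002292 with DESeq2-type size factors, -0.002636 in the fit of all samples and -0.16 to 0.09087 with 1 sample left out. Nppa in adult KO ranged from -0.5585 to 0.7021. For CTRL P90 against P14, Nppa was 0.2432 and Ankrd1 0.08006 without the Y-linked samples, and -0.9565 to 0.3618 and -0.8082 to 0.1453 with 1 sample left out. The causes were not tested. Same-numbered KO and CTRL samples had correlations of 0.05, 0.15 and 0.36 at P14 and of 0.18, -0.000342 and 0.05 at P90 in their deviations from the group means. Differently numbered ones lay between -0.241 and 0.151 at P14 and between -0.253 and 0.173 at P90. With 3 samples per group these values do not decide whether the numbers pair samples. The labels do not say either, and no pairing was assumed. With the block, Nppa and Ankrd1 were also called in neonatal KO, Nppb and Xirp2 in adult KO, and Xirp1 in CTRL P90 against P14, and 12 of the 14 stress genes were called in adult KO.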
